A study of Mus musculus with 2 samples.

Results

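The genes described here encode the main metalloproteases of the extracellular matrix and their inhibitors in embryonic mouse limb. They were chosen by symbol alone, as the protein-coding genes of the matrix metalloprotease (Mmp), Adamts, Adamts-like (Adamtsl) and Timp families. That gave 50 of 43346 mouse genes in the tables, 22 Mmp, 19 Adamts, 5 Adamtsl and 4 Timp genes. The data are total RNA sequencing of limb from B6NCrl mouse embryos aged 15.5 days. There was 1 group, with a library from each of 2 separate pools of male and female embryos, 78 embryos in replicate 1 and 62 in replicate 2. No treatment or mutation is named in the labels, and whether the tissue was forelimb, hindlimb or a mix is not in the labels. With 1 group no conditions could be compared, so levels are given as measured and the pools are set side by side, without p-values.

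Matrix metalloproteases (MMPs) and ADAMTS proteases are zinc enzymes that cut collagens, proteoglycans and other matrix proteins outside the cell. They are made as inactive precursors and become active when the propeptide that blocks the active site is removed, which convertases of the furin type, plasmin or another metalloprotease can do. TIMPs (tissue inhibitors of metalloproteases) plug the active site, while ADAMTS-like proteins share the domains of ADAMTS proteases outside the catalytic part and are not proteases. In the developing limb such enzymes are known for opening cartilage to blood vessels and bone, for clearing the versican-rich matrix between digits, and for trimming newly made collagen.

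Expected counts, which are estimated read counts per gene, summed to 35104685 in replicate 1 and 41757268 in replicate 2. TPM, the level of a gene per unit of transcript length scaled to a fixed library total, is the scale on which genes are compared with each other below. A gene with 0 counts could have had up to 3 counts, which is 0.0855 and 0.0718 CPM (counts scaled to library size) in the respective libraries. The limb mesenchyme gene Prrx1 had 86.3 and 94.2 TPM, the forelimb gene Tbx5 16.04 and 12.02 TPM, and the hindlimb genes Tbx4 (12.6 and 18.02 TPM) and Pitx1 (19.1 and 30.8 TPM) were present as well. These 4 markers were chosen after their values had been seen.

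Both libraries had 1 TPM or more for 37 of the 50 genes (74.0%), against 62.7% of all 21474 protein-coding genes. A TPM of at least 10 in both was reached by 18 (36.0%), against 41.3%. The families were uneven, with 18 of 19 Adamts genes, 5 of 5 Adamtsl genes and 3 of 4 Timp genes at or above 1 TPM, but 11 of 22 Mmp genes. In summed TPM the order was different. The MMPs held 741 TPM in replicate 1 and 715 in replicate 2, the ADAMTS proteases 228 and 224, the TIMPs 234 and 238, and the ADAMTS-like genes 70.3 and 66.1. Each family's sum thus differed little between the pools. As a share of all mouse TPM this was 0.0768% ± 0.00200 for MMPs, 0.0238% ± 0.00030 for ADAMTS, 0.0249% ± 0.00028 for TIMPs and 0.00719% ± 0.00031 for ADAMTS-like genes (SD, n = 2). TIMP TPM was 0.316 and 0.333 of MMP TPM and 1.03 and 1.07 times ADAMTS TPM. These are sums of RNA over all cells of the limb, in which fewer cells of a type and less RNA per cell cannot be told apart, and they say nothing of how much enzyme was active.

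**Figure D1:**
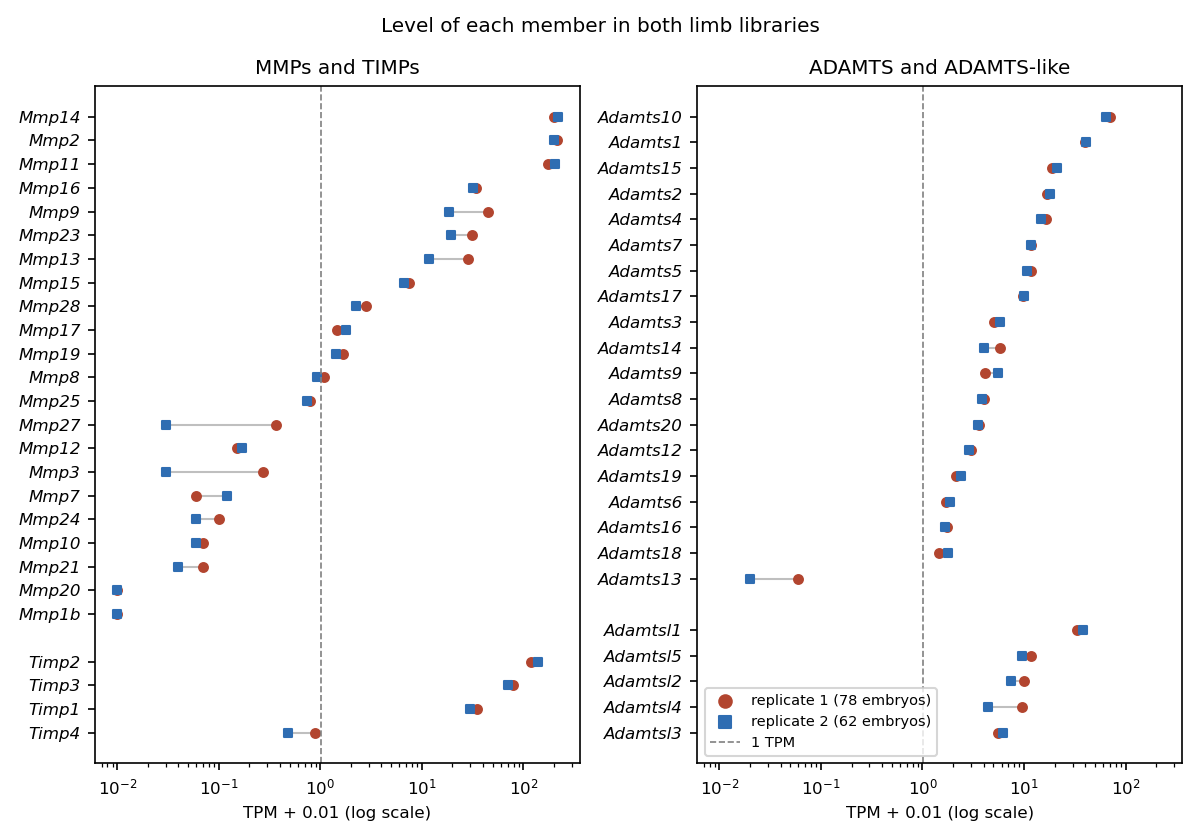
TPM of each member in replicate 1 (circles) and replicate 2 (squares), with 0.01 added and a log axis, ordered within each family by mean level. Mmp14, Mmp2 and Mmp11 stood above the other MMPs near 200 TPM, while Mmp1b and Mmp20 had 0 counts in both libraries.

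Of the MMPs, 3 genes made up most of the family's RNA. Mmp14 (ENSMUSG00000000957.8, GRCm38 chromosome 14, 54431612 to 54445364) encodes the membrane-anchored collagenase MT1-MMP and had 202 TPM in replicate 1 and 218 in replicate 2. Mmp2 (ENSMUSG00000031740.7, chromosome 8, 92827291 to 92853420), the gelatinase that MT1-MMP activates on the cell surface, had 213 and 199 TPM. Mmp11, stromelysin-3 of stromal cells, had 173 and 202 TPM. Together they held 79.2% of MMP TPM in replicate 1 and 86.6% in replicate 2. The order of Mmp14 and Mmp2 turned between the libraries, with log2 of Mmp14 over Mmp2 at -0.07 and 0.13. Their means ranked 686 and 704 among protein-coding genes, and that of Mmp11 ranked 784. Mmp11 shared 5.58% of its exon bases with Chchd10, a gene of the opposite strand, at 20.6 and 13.0 TPM.

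The other membrane-type MMPs were far lower than Mmp14. Mmp16, encoding MT3-MMP, had 33.9 and 31.9 TPM, which put Mmp14 5.95-fold and 6.82-fold above it. Mmp15, encoding MT2-MMP, had 7.43 and 6.66 TPM, 26.8-fold and 32.3-fold below Mmp14. The pair attached to the membrane by a lipid anchor, Mmp17 and Mmp25, had 1.44 and 1.76 TPM and 0.78 and 0.73 TPM respectively. Mmp24, a membrane-type MMP best known from neurons, had 8.81 and 5.46 counts, and 13.6% of its exon bases lay in exons of the opposite-strand gene BC029722. Transmembrane Mmp14 and Mmp16 were thus the only membrane-type genes with 10 TPM or more in both libraries.

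Mmp9 and Mmp13 formed a second tier that differed between the pools. Mmp9 (ENSMUSG00000017737.2, chromosome 2, 164940780 to 164955850) encodes gelatinase B, known in growing bone from osteoclasts and related cartilage-resorbing cells, and had 44.5 TPM (2756 counts) in replicate 1 and 18.4 TPM (1310 counts) in replicate 2. Mmp13 (ENSMUSG00000050578.9, chromosome 9, 7272514 to 7283331) encodes collagenase-3, known from terminal hypertrophic chondrocytes and osteoblasts, and had 28.1 TPM (1616 counts) and 11.8 TPM (828 counts). Both were higher in replicate 1 by a similar factor, so that log2 of Mmp13 over Mmp9 was -0.66 in replicate 1 and -0.64 in replicate 2. Mmp23, whose product is anchored by its propeptide and shed on activation, had 31.2 TPM (745 counts) and 19.5 TPM (550 counts). The collagenase Mmp8, best known from neutrophils, had 1.07 and 0.92 TPM on 56 and 59 counts, so Mmp13 stood 24.1-fold and 11.7-fold above it.

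The remaining MMPs were low. Mmp28, or epilysin, had 2.82 and 2.24 TPM and shared 12.03% of its exon bases with an opposite-strand gene at 0.29 and 0.53 TPM. Mmp19 had 1.67 and 1.42 TPM, with 22.3% of its exon bases in exons of the opposite-strand gene Tmem198b, which had 20.7 and 20.1 TPM. Whether counting used the strand is not given in the sources used here, so reads of such pairs may not have been fully separated. The stromelysin gene Mmp3 had 10 and 1 counts, the macrophage elastase gene Mmp12 had 1 and 6, and the matrilysin gene Mmp7 had 1 and 3. In CPM, Mmp3 was 11.9-fold higher in replicate 1 with a 95% exact counting interval of 1.69 to 516. Mmp27 had 13 and 1 counts, a ratio of 15.5 (2.32 to 657). Both rest on so few reads that no level can be set for replicate 2. Likewise Mmp10 (stromelysin-2) and Mmp21 (known from left-right patterning) had 2 in each library. Mmp20, the enamel protease, and Mmp1b had 0 counts in both, where 3 counts would have been 0.0423 and 0.0346 TPM for Mmp20 and 0.0996 and 0.0815 TPM for Mmp1b.

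Of the low genes, 8 lie beside Mmp13 in the MMP cluster of chromosome 9. The cluster spans 427 kb (chromosome 9, 7272514 to 7699585) and holds 10 genes, in the order Mmp13, Mmp12, Mmp1b, Mmp3, Mmp1a, Mmp10, Mmp8, Mmp27, Mmp20 and Mmp7. Mmp1a is annotated as a polymorphic pseudogene, so the rule did not take it, and it had 0 counts in both libraries. Mmp13, at one end, had 95.1% of the cluster's 1699 counts in replicate 1 and 92.0% of its 900 counts in replicate 2. Mmp8, in the middle, came next with 56 and 59 counts. Mmp12 and Mmp1b share 157 exon bases on opposite strands, so their few reads may not be separable.

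**Figure D2:**
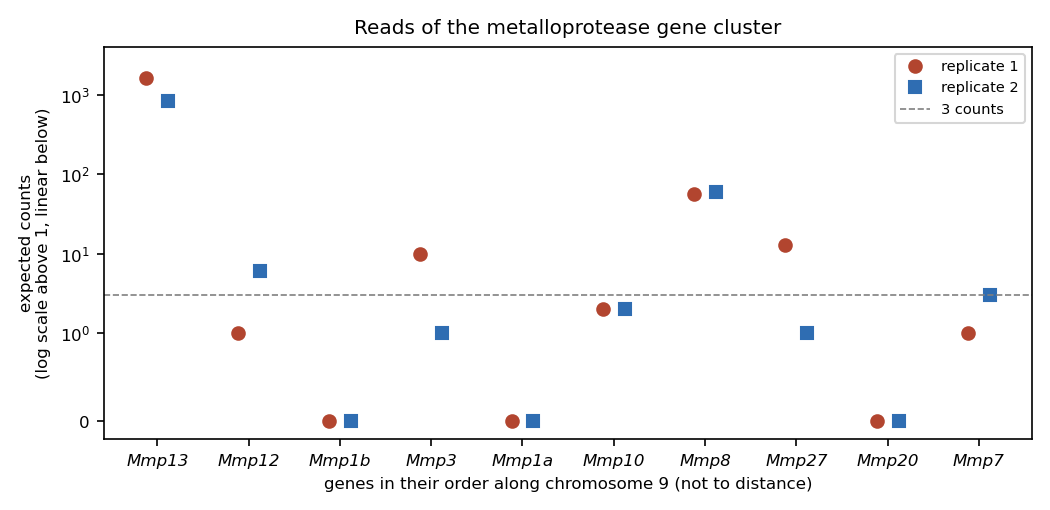
Expected counts of the 10 genes of the chromosome 9 cluster in chromosomal order, in replicate 1 (circles) and replicate 2 (squares), on an axis that is logarithmic above 1 and linear below, with a dashed line at 3 counts. Mmp13 stood at 1616 and 828 counts, Mmp8 at 56 and 59, and the other genes at 13 or fewer.

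The promoters of these neighbours are shown because most share short motifs while their RNA levels lay far apart. Sequences are the 150 bases upstream of the RefSeq transcript start (GRCm38.p6), read 5′ to 3′ on the strand of the gene. Capitals mark matches to TGANTCA (the AP-1 motif), AGGAAG (the PEA3 motif of ETS factors) or TATAAA (the TATA box), sought on both strands, so that CTTCCT is AGGAAG on the other strand. The matches marked in these 5 promoters do not overlap. Outside the 150 bases shown, AGGAAG also occurred at -183 to -178 in Mmp3 and, on the other strand, at -220 to -215 in Mmp8.
Mmp13, chr9:7272364-7272513, plus strand: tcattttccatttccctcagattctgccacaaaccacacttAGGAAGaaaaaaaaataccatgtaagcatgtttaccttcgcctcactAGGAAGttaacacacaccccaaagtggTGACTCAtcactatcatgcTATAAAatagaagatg
Mmp3, chr9:7445672-7445821, plus strand: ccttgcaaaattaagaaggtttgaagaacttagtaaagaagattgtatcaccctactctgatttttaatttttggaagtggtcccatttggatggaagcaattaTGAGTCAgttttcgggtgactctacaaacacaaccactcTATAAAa
Mmp10, chr9:7502192-7502341, plus strand: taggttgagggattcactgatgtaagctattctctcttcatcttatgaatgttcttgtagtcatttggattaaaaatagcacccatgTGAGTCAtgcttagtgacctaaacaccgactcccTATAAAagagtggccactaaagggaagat
Mmp20, chr9:7628081-7628230, plus strand: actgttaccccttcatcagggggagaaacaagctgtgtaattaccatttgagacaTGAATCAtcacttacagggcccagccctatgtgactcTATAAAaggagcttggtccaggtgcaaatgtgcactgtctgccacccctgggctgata
Mmp8, chr9:7558279-7558428, plus strand: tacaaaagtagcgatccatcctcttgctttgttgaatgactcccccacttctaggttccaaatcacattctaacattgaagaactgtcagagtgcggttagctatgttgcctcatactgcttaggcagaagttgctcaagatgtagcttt

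Promoter sequence was found for 35 of the 50 genes, in 38 entries because 3 genes (Mmp7, Mmp12 and Mmp23) have a pair of listed starts. In the 250 upstream bases the AP-1 letters occurred in 7 of the 38 entries (18.4%), against 6.75% of 32851 promoters. All 7 belonged to the cluster, to Mmp10, Mmp12, Mmp13, Mmp1b, Mmp20, Mmp3 and Mmp7, and none of the 27 entries of other members held them. Mmp2, Mmp9, Mmp16 and Adamts10 were among the members without an entry, so their promoters were not searched. In Mmp13 the motif lay at bases -35 to -29 before the start, in Mmp3 at -46 to -40, in Mmp10 at -63 to -57 and in Mmp20 at -95 to -89. TATAAA occurred in 9 entries (23.7%, against 12.4% of all promoters), 6 of them in the cluster, and AGGAAG in 14 (36.8%, against 29.5%). The cluster entries without the AP-1 letters included that of Mmp8, the cluster gene next to Mmp13 in counts, while Mmp20 and Mmp1b held them at 0 counts. A match is a description of letters and does not show that a factor binds.

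TIMP RNA came mostly from a pair of genes. Timp2 (ENSMUSG00000017466.5, chromosome 11, 118301069 to 118355740), whose product both inhibits MMPs and bridges MT1-MMP to the Mmp2 precursor, had 119.8 TPM in replicate 1 and 138 in replicate 2. Timp3, the inhibitor held in the matrix and the TIMP that best blocks ADAMTS proteases, had 79.0 and 70.3 TPM. Timp1, an X-linked secreted inhibitor, had 34.8 and 29.7 TPM. Timp4, mainly known from heart and brain, had 0.88 and 0.47 TPM on 26 and 17 counts. The order Timp2, Timp3, Timp1, Timp4 was the same in both libraries. Timp2 and Timp3 together held 84.8% and 87.4% of TIMP TPM.

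In the pairs of TIMPs and MMPs compared, Timp2 was lower than Mmp14 and Mmp2 in both libraries, while Timp1 and Mmp9 had no fixed order. Mmp14 was 1.69-fold and 1.58-fold above Timp2, and Mmp2 was 1.77-fold and 1.44-fold above it. Mmp9 over Timp1, the pair known to bind as precursor and inhibitor, changed order, with log2 ratios of 0.35 in replicate 1 and -0.69 in replicate 2. Without division by length Mmp9 had more counts than Timp1 in both libraries (2756 and 1310 against 589 and 610), so this change of order holds per length alone. Reck, a membrane-anchored inhibitor of Mmp14, Mmp2 and Mmp9, had 29.2 and 31.2 TPM, 6.90-fold and 6.96-fold below Mmp14. Timp1, Timp3 and Timp4 lie within synapsin genes on the opposite strand, and Timp3 shared 21.3% of its exon bases with Syn3. Syn3 was listed at 1.38 and 1.40 TPM, far below Timp3.

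**Figure D3:**
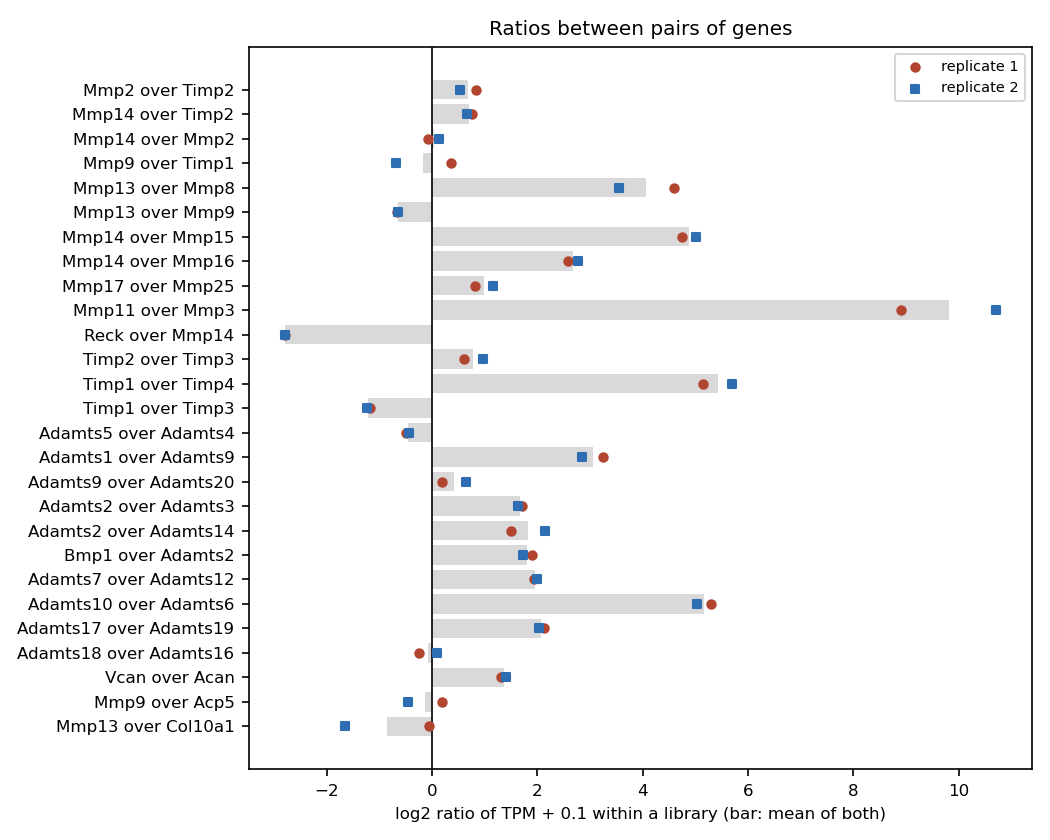
Log2 ratio of TPM (0.1 added) for pairs of genes within replicate 1 (circles) and replicate 2 (squares), with bars at the mean of both. Mmp14 exceeded Timp2 in both libraries, Mmp9 over Timp1 lay on opposite sides of 0, and Mmp13 over Mmp9 was nearly equal at -0.66 and -0.64.

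The genes that activate or take up these proteases were mostly measured at moderate levels. Of 10 listed activators, 9 had a mean of at least 1 TPM. St14 (matriptase), Plat (tissue plasminogen activator), Pcsk7 and Pcsk5 were highest, at 16.4 and 17.5, 23.4 and 16.7, 15.9 and 15.3, and 14.2 and 13.5 TPM. Furin, the convertase that removes the propeptide of Mmp14 and Mmp11, had 10.8 and 11.3 TPM. Plg, the plasmin precursor made in liver, had 0.07 and 0.58 TPM. The uptake receptor Lrp1, which clears Mmp9, Mmp13, Adamts4 and Adamts5, had 124 and 119 TPM, and the collagen receptor Mrc2 had 26.2 and 27.6 TPM. Bsg, a surface protein known as an inducer of MMPs, had 812 and 748 TPM.

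ADAMTS RNA was spread over more genes than MMP RNA, led by Adamts10 and Adamts1 with 48.4% and 46.7% of the family's TPM. Adamts10 (ENSMUSG00000024299.12, chromosome 17, 33524204 to 33553782), which acts on fibrillin microfibrils, had 70.3 and 63.9 TPM. Its close relative Adamts6 had 1.70 and 1.85 TPM, 39.1-fold and 32.8-fold lower. The gap between these relatives was the widest of the ADAMTS pairs compared. These are gene-level values, and coding transcripts held only 23.5% and 22.1% of Adamts10 TPM.

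The 7 hyalectanases, which cut versican and aggrecan, were all detected and summed to 98.5 and 99.95 TPM. Adamts1 had 40.0 and 40.7 TPM, Adamts15 18.7 and 21.2 TPM, Adamts4 16.4 and 14.5 TPM and Adamts5 11.7 and 10.7 TPM. Adamts5 was thus 1.40-fold and 1.36-fold below Adamts4 per length, but it had more counts (2078 and 2324 against 1531 and 1683), so the order of this pair depends on the division by length. Adamts9, Adamts8 and Adamts20 were lower, at 4.11 and 5.55, 4.04 and 3.82, and 3.62 and 3.52 TPM. Adamts9 and Adamts20, known with Adamts5 for versican cleavage in the web between digits, lay 1.13-fold and 1.56-fold apart. Versican RNA (Vcan) had 65.9 and 77.5 TPM and aggrecan RNA (Acan) 26.4 and 29.3 TPM, so that Vcan was 2.49-fold and 2.64-fold the higher.

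Of the procollagen N-proteinases, which remove the amino-terminal propeptide of fibrillar collagens, Adamts2 was the highest at 16.7 and 18.1 TPM. Adamts3, also known for activating the lymphatic growth factor VEGF-C, had 5.02 and 5.74 TPM, and Adamts14 had 5.84 and 4.01 TPM. Adamts2 exceeded Adamts3 3.28-fold and 3.11-fold, and Adamts14 2.82-fold and 4.42-fold. Adamts3 and Adamts14 changed order between the pools. Bmp1, the proteinase of the opposite propeptide, was 3.71-fold and 3.29-fold above Adamts2. The fibrillar collagen substrates were far higher than any of these enzymes, with Col1a1 at 4931 and 4017 TPM and Col3a1 at 3228 and 2793 TPM.

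The other ADAMTS proteases ranged widely. Adamts7, which cuts the cartilage protein Comp, had 11.7 and 11.6 TPM, against 2.97 and 2.86 for its relative Adamts12. Comp itself had 77.0 and 74.4 TPM. Adamts17, linked like Adamts10 to fibrillin and short stature, had 9.67 and 10.1 TPM, 4.34-fold and 4.07-fold above Adamts19 (2.15 and 2.40 TPM). Adamts16 and Adamts18 were close to each other at 1.75 and 1.66, and 1.46 and 1.77 TPM, with their order turning between the libraries. Adamts13, the liver protease of von Willebrand factor, had 4 and 1 counts, a CPM ratio of 4.76 with a 95% exact counting interval of 0.471 to 234. It was the only Adamts gene below 1 TPM.

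The ADAMTS-like genes were all above 1 TPM. Adamtsl1 (punctin) had 33.5 and 38.4 TPM, Adamtsl5 11.6 and 9.63 TPM, and Adamtsl3 5.58 and 6.15 TPM. Adamtsl2, a fibrillin-binding gene of skeletal dysplasia, had 9.94 and 7.51 TPM, although its CPM values were equal (ratio 1.00). Adamtsl4, also a fibrillin-binding gene, had 9.57 and 4.43 TPM on 659 and 457 counts. Adamtsl1 alone in this family reached 10 TPM in both libraries.

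Between the pools, most members were close and a few of them were higher in replicate 1. The difference was taken as log2 of replicate 2 over replicate 1 (TPM with 0.1 added), centred on the median gene, for the 37 members with a mean of at least 1 TPM. Of these, 21 were higher in replicate 1 and 16 in replicate 2, with a median log2 difference of -0.05, against 0 by construction for all 15571 genes tested. More than 2-fold apart were 3 members (8.11%), against 3.63% of all genes tested. All 3 were higher in replicate 1, where 2.47% of all genes were, and 0 were higher in replicate 2, where 1.16% were. With the counting interval only, Mmp9 was 2.50-fold higher in replicate 1 in CPM (95% exact interval 2.34 to 2.67) and Mmp13 2.32-fold (2.13 to 2.53). Their log2 differences in TPM were -1.24 and -1.22. They are intervals of counting alone, which amplified reads exceed, and they compare 2 libraries. Among the 19 members with a mean of at least 10 TPM, Mmp9 and Mmp13 were the 2 over 2-fold higher in replicate 1 (10.5%), against 1.2% of all genes at that level.

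The third, Adamtsl4, lay close to the limit. Its log2 difference was -1.07 in TPM, but in CPM it was 1.72-fold (1.52 to 1.94). It passed 2-fold in 4 of 8 scalings and fell short with a pseudocount of 1, with posterior mean TPM and with both count scalings, whereas Mmp9 and Mmp13 passed in all 8. The 4 that Adamtsl4 passed restate nearly the same TPM ratio, with log2 differences from -1.09 to -1.06, so the 8 scalings are not separate checks. Mmp23 had a log2 difference of -0.66 and was 1.61-fold higher in replicate 1 in CPM (1.44 to 1.80). For each gene a yardstick was the 95th percentile of the absolute difference over genes of like mean TPM, which 5.0% of all genes pass. It was passed by 4 members (10.8%), Mmp9, Mmp13, Adamtsl4 and Mmp23. Among the other 33, the log2 differences ran from -0.51 for Adamts14 to 0.45 for Adamts9, which was the member furthest toward replicate 2. The 3 TIMPs above 1 TPM lay between -0.21 and 0.23, and the ADAMTS proteases had a median of 0.03.

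**Figure D4:**
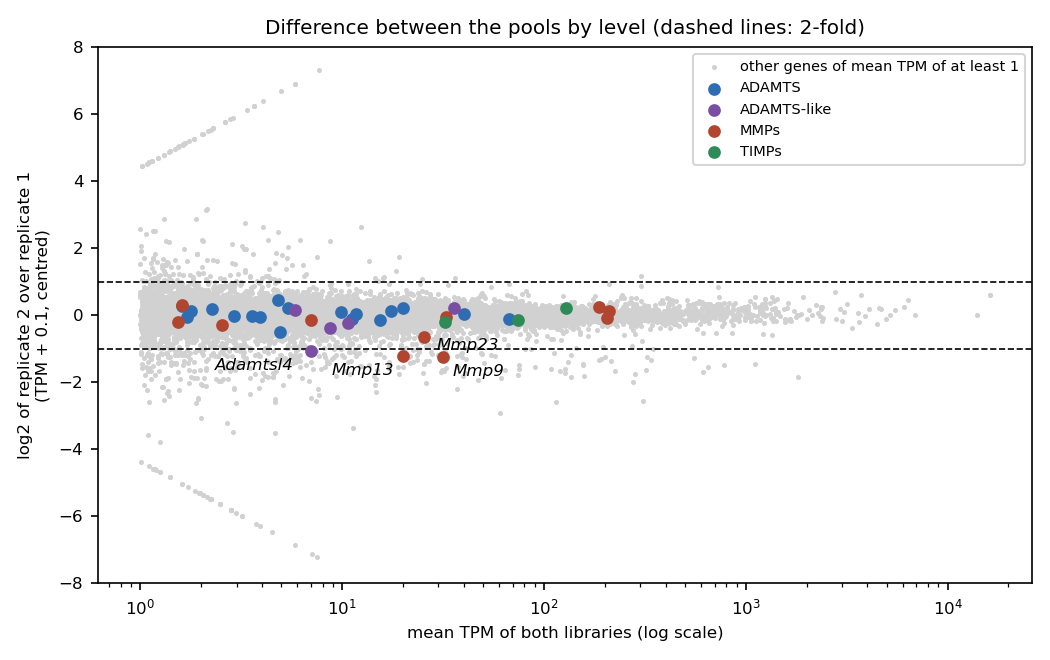
Log2 of replicate 2 over replicate 1 against mean TPM (log axis) for all genes with a mean of at least 1 TPM (grey) and for members by family (colours), with dashed lines at 2-fold. Mmp9 and Mmp13 at -1.24 and -1.22 and Adamtsl4 at -1.07 lay below the lower line, and most other members lay near 0.

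Markers of several cell types moved with Mmp9 and Mmp13 between the pools, and their part in the result was not tested. The 9 osteoclast markers, none at 0, summed to 175 and 113 TPM. Only 4 of the 9 had a mean of at least 1 TPM, all higher in replicate 1, with a median log2 difference of -0.60. In TPM 8 of the 9 were higher in replicate 1. The RANK receptor gene Tnfrsf11a, with a mean of 0.985 TPM, was higher in replicate 2 (46 and 93 counts). Those higher in replicate 1 included Ctsk (127 and 81.2 TPM), Acp5 (38.8 and 25.4 TPM) and Atp6v0d2 (2.57 and 0.87 TPM). Mmp9 differed more than Acp5 did, with log2 of Mmp9 over Acp5 at 0.20 and -0.46. The 9 osteoblast markers, none at 0, summed to 822 and 442 TPM, with 8 higher in replicate 1 and a median log2 difference of -0.67. Spp1, an osteoblast and hypertrophic chondrocyte marker and a substrate of MMPs, had 286 and 118 TPM. Mmp13 and Spp1 differed to a like extent, with log2 differences of -1.22 and -1.26.

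The cartilage list was mixed, while muscle, endothelial and most macrophage and neutrophil markers were also higher in replicate 1, by very different amounts. Of 7 hypertrophic chondrocyte markers, none at 0, 4 were higher in replicate 2 and the median log2 difference was 0.03, although their sum (851 and 531 TPM) followed the bone genes Ibsp, Spp1 and Alpl that the list shares with the osteoblast list. Col10a1, the collagen of hypertrophic cartilage, had 29.4 and 37.2 TPM, so that log2 of Mmp13 over Col10a1 was -0.07 in replicate 1 and -1.65 in replicate 2. All 6 muscle markers, none at 0, were higher in replicate 1 and summed to 6148 and 1827 TPM, with a median of -1.65, the widest gap of the lists. Over 2-fold apart were 5 of them, Acta1, Myl1, Tnnt3, Ckm and Mylpf. Of the markers with a mean of at least 1 TPM, 6 of 6 endothelial, 6 of 7 macrophage and 5 of 7 neutrophil genes were higher in replicate 1, with medians of -0.19, -0.23 and -0.23, and the neutrophil granule gene Ngp was over 2-fold apart (8.63 and 3.70 TPM). Fibroblast and keratinocyte markers were higher in replicate 1 for 5 of 8 and 3 of 5 genes. Summed levels in replicates 1 and 2 were 77.9 and 63.9 TPM for the 8 neutrophil markers, 306 and 256 for macrophage, 243 and 208 for endothelial, 13008 and 11178 for fibroblast and 3336 and 3153 for keratinocyte markers, with none of these genes at 0.

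**Figure D5:**
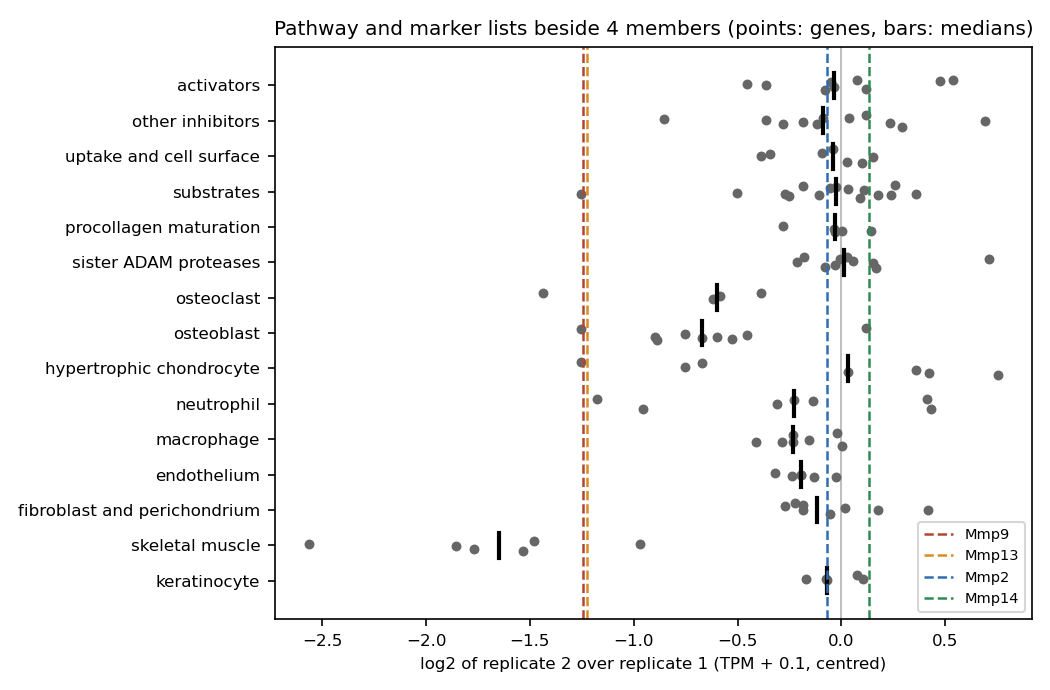
Log2 of replicate 2 over replicate 1 for genes of the pathway and marker lists with a mean of at least 1 TPM (points, spread vertically for clarity), with list medians as bars and 4 members as dashed vertical lines. Mmp9 and Mmp13 at -1.24 and -1.22 lay beyond the medians of the osteoclast (-0.60, 4 genes) and osteoblast (-0.67, 9 genes) lists, while Mmp2 and Mmp14 lay near 0.

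Of the listed pathway genes that are not members, 56 had a mean of at least 1 TPM, and 1 of them (1.79%) was over 2-fold apart, the substrate gene Spp1, against 3.63% of all genes tested. That share is near the background and is no result about these genes. The list medians lay between -0.09 and 0.01. Below 1 TPM, the plasminogen gene Plg had 4 and 42 counts and the protease inhibitor gene Pzp 12 and 75 counts, both higher in replicate 2.

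Transcript estimates split some members among coding and non-coding forms. Of the 37 members with a mean of at least 1 TPM, 26 had at least 2 annotated transcripts, and the most abundant was the same in both libraries for 23. Its share of the gene's TPM had a median of 76.9%, and it was annotated as protein-coding for 23. Timp2-201 had 98.7% and 99.7% of Timp2, and Mmp9-201 had 85.9% and 77.7% of Mmp9. Mmp13, Mmp2 and Mmp14 were among the 11 members with 1 transcript in the tables.

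The most abundant transcript differed between the libraries for Adamts10, Adamtsl2 and Timp1. It was not annotated as coding for Adamts10, Adamts20 and Adamts9. Adamts10 was split among 12 transcripts, of which Adamts10-207, annotated for nonsense-mediated decay, had 21.9% and 29.9%, and coding Adamts10-201 had 23.5% and 22.1%. The coding one was the only transcript of Adamts10 annotated as protein-coding that had reads, and it held 30.2% and 26.8% of the counts, so most of the gene-level value of Adamts10 came from transcripts not annotated that way. Adamts20-203, a retained intron form, had 61.3% and 59.7% of Adamts20, and Adamts9-204, a processed transcript, had 33.6% and 33.3% of Adamts9. By counts, coding forms held 69.2% and 70.8% of Adamts20 and 53.7% and 57.4% of Adamts9. The coding share of counts was also low for Adamtsl5, at 35.6% and 34.8%, so most of its counts came from other forms. Of its TPM, coding forms held 47.38% and 51.25%. For Adamtsl4 the main coding transcript went from 67.0% in replicate 1 to 86.9% in replicate 2, beside the gap between its TPM and count ratios.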

How the data were processed

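Total RNA longer than 200 nt was extracted by the Ambion mirVana method, 10 ng went into each library and spike-ins were added, per the labels' protocols. The authors deposited a gene table and a transcript table per library, on mm10 per the labels and with annotation M4 per the deposited records. Per the file headers these hold expected counts, TPM, posterior mean TPM, FPKM and, for transcripts, the percent of each gene. The aligner, the counting program and its strand setting were not given in the sources used here. Spike-ins took 2.28% and 2.26% of counts in the 2 libraries. Symbols, coordinates and biotypes came from GENCODE M21 (GRCm38), matched on the gene identifier without version, with 884 rows unmatched. Promoters came from RefSeq (GRCm38.p6).

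Shares, ratios (TPM with 0.1 added), differences between pools, exact 95% binomial (Clopper-Pearson) counting intervals and transcript shares were computed in Python 3.11.15 with pandas 2.3.3 and scipy 1.17.1. Alternative scalings used edgeR 4.0.16 and DESeq2 1.42.0 in R 4.3.3 on expected counts rounded to whole numbers, for scaling factors only. The labels call the libraries biological replicates from separate pools. Members, gene lists and pairs were chosen with earlier results of these data known. Every member was named. Genes of other lists could be named if among the 4 highest, over 2-fold apart or in a pair, but not all of these are named, and any others were chosen after their values were seen. The program that computes differences between pools was checked on simulated counts.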

Additional observations from a re-analysis of the deposited data

How the results depend on the processing

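No paired analysis was possible because there was 1 group. The number of members detected ran from 34 (FPKM in place of TPM) to 39 (a limit of 0.5 TPM) around 37, and from 37 to 38 with either replicate left out. Members over 2-fold apart numbered 2 to 3 over 8 scalings, 4 at 1.5-fold and 5 with no filter on TPM, which added Mmp27 and Mmp3 on 13 and 10 counts against 1. Adamtsl4 was the member lost in the scalings with 2. The median log2 difference of all genes was 0 by construction in the centred scalings. It was -0.0232 without centring and -0.009 with TPM scaled to the spike-ins. With both count scalings, whose factors are set to balance the libraries, it was 0.001 and 0.002.

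Family shares of TPM depended on the denominator and unit. As shares of counts, not divided by length, they were 0.118% for MMPs, 0.0681% for ADAMTS, 0.0136% for ADAMTS-like and 0.0545% for TIMP genes. Of protein-coding TPM they were 0.0871%, 0.0270%, 0.00815% and 0.0283%. With posterior mean TPM the TIMP share was 0.0244%.

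Of 108 pair ratios recomputed with another unit or pseudocount, 74 moved by less than 1 SD between the libraries. These include every ratio from FPKM, which is proportional to TPM within a library, so that those ratios could hardly move. With counts not divided by length 5 changed sign. Adamts5 over Adamts4 turned in this way to a log2 of 0.45, and Mmp9 over Timp1 (1.66), Mmp9 over Acp5 (0.94), Mmp14 over Mmp2 (-0.21) and Adamts18 over Adamts16 (0.11) had lain on opposite sides of 0 in the 2 libraries. Members' differences between pools stayed within the margin of their counting interval in 247 cases and moved by more in 12, and Mmp16, Adamts20 and Adamts7, all close to 0, changed sign under some scaling. Taking TPM without centring or scaled to the spike-ins shifts all genes nearly alike, and FPKM is proportional to TPM, so these cases could hardly move. All 12 that moved came from the count scalings. Transcript shares moved little in 36 cases, but these include all 26 from the deposited percent, which restates the TPM share and could not move. With transcript counts, the share moved by more than the spread between libraries for 16 of the 26 genes. With 2 libraries, differences between embryos, in the tissue taken and between library preparations cannot be told apart. The 10 ng of RNA per library also limits the precision for rare transcripts. Samples were too few for a search for outliers.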
